A study of Mus musculus with 10 samples.

Results

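Neurexins and neuroligins are cell-surface proteins that hold the sides of a synapse together. Neurexins sit mainly on the axon terminal and neuroligins on the dendrite that faces it, and the neuroligins bind neurexins across the cleft. Each neurexin gene makes a long alpha and a short beta form from separate promoters, and alternative splicing of both families sets which partners bind. Nlgn1 protein is found mainly at excitatory synapses, Nlgn2 protein mainly at inhibitory ones, and Nlgn3 protein at both.

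The genes described are Nrxn2, Nrxn3, Nlgn1, Nlgn2 and Nlgn3, taken by symbol from a table of 30935 gene IDs. All 5 had an ID in the table, and all 5 passed the filter on low counts. RNA-seq reads were counted per gene in mouse midbrain at embryonic day 14.5, and the groups are 5 libraries homozygous for a deletion of HAR.321 (Rbfox1 ΔHAR.321/ΔHAR.321; deletion 2, 3, 4, 5 and 6) and 5 wild-type libraries (Rbfox1 +/+; wild-type 1, 2, 4, 5 and 6). HAR.321 is a human accelerated region, a sequence otherwise conserved among vertebrates that changed fast on the human lineage, in the locus of the neuronal splicing factor gene Rbfox1. The sources used here give no strain, litter, number of deletion lines or embryo sex. Exon use was not analysed here, so the alpha and beta forms of a neurexin are counted together.

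The libraries held 16246892 to 20255728 counts. Midbrain markers fixed by list (En1, En2, Otx2 and 7 others) summed to 617 to 676 CPM (counts scaled to a common library size with TMM factors) in the deletion and 650 to 712 CPM in the wild-type libraries, and all 6 listed hindbrain genes stayed below 1 CPM in every library. The listed forebrain genes summed to 223 to 319 CPM in the deletion and 247 to 318 CPM in the wild-type libraries. Deletion 4 stood apart from the other libraries. Its log2 CPM rose with the GC content of a gene's longest transcript by 0.25 for each 10 percentage points, against -0.05 to -0.02 in the other deletion libraries and -0.13 to 0.09 in the wild-type libraries. A trend on transcript length also moved with the groups, with slopes of 0.04 ± 0.04 in the deletion and -0.04 ± 0.04 in the wild-type libraries (SD, n = 5 each, log2 CPM per doubling of length).

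The members differ in the features that these trends follow. The longest annotated transcripts of Nrxn2 and Nlgn2 are GC-rich (62.4% and 60.7% GC), those of Nlgn3 and Nrxn3 lie near the middle (49.3% and 47.5%), and that of Nlgn1 is GC-poor (38.9%). They run from 5568 bases for Nlgn2 to 11807 bases for Nlgn1, against a median of 3492 bases over the tested genes. The gene bodies differ far more. Nrxn3 on chromosome 12 spans 1612 kb and Nlgn1 on chromosome 3 spans 911 kb, while Nrxn2 on chromosome 19 spans 114.5 kb, Nlgn3 on the X chromosome 22.2 kb and Nlgn2 on chromosome 11 only 14.7 kb (RefSeq, GRCm38.p6). The motif TGCATG, which RBFOX proteins bind in RNA as UGCAUG, was found 0 times in the longest Nrxn2 transcript, 3 times in those of Nrxn3 and Nlgn2, 7 times in that of Nlgn1 and 2 times in that of Nlgn3. Of the longest transcripts of all tested genes, 60.2% hold it on the sense strand. RBFOX sites that act on splicing lie mostly in introns, which were not searched here.

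RefSeq promoters, from 250 bases before to 50 bases after a start, were at hand for 3 of the members (Nlgn1, Nlgn2 and Nrxn3). Those of Nlgn2 and Nlgn1 are shown because these genes had the highest and the lowest level of the neuroligins. Capitals mark GGGCGG, the core of the box that SP-family factors bind, on the strand printed, and both strands were searched.
Nlgn2, GRCm38.p6 chr11:69837735-69838034, minus strand: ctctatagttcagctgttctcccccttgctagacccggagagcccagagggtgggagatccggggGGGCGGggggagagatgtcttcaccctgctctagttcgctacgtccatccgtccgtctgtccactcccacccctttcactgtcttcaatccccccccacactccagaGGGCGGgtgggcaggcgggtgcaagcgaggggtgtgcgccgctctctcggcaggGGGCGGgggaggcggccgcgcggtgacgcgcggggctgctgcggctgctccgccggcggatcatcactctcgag
Nlgn1, GRCm38.p6 chr3:26331860-26332159, minus strand: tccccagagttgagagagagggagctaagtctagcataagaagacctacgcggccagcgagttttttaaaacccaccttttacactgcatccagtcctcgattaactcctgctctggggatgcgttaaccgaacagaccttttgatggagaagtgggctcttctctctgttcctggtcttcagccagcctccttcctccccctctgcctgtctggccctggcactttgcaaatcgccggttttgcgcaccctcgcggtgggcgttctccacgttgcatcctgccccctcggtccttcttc

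The Nlgn2 window holds 3 copies of GGGCGG and 26 CG dinucleotides at 68.7% GC, which is a higher GC content than that of 88.5% of the 32851 promoters in the table. The Nlgn1 window holds no copy and 14 CG dinucleotides at 55.7% GC. GGGCGG is found on either strand in 35.7% of all promoters of this length. A second Nlgn1 start had 44.7% GC and 6 CG dinucleotides, and the 3 Nrxn3 starts ranged from 47.3% to 60.7% GC. A match or its absence in such a window says nothing of whether a factor binds.

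Levels were compared between genes per kilobase of the longest transcript. Nrxn2 was the highest member, at 84.2 ± 5.86 CPM per kb in the deletion and 79.9 ± 10.1 CPM per kb in the wild-type group (SD, n = 5 each, as for all means below), above 95.7% of tested genes. Nlgn2 followed at 55.8 ± 5.72 and 54.2 ± 4.79 CPM per kb in the deletion and the wild-type group, above 92.5% of tested genes. Nlgn3 (16.6 ± 0.672 deletion, 14.3 ± 1.39 wild-type) and Nrxn3 (12.5 ± 1.75 deletion, 10.9 ± 1.03 wild-type) had middling levels per kb. Nlgn1 was the lowest, at 4.96 ± 0.518 and 4.97 ± 0.395 CPM per kb in the deletion and the wild-type group, and 37.2% of tested genes were lower. No library of either group placed a lower member of this order above a higher one of the same group.

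The lower end of that order depends on the transcript used. Divided by the second longest coding transcript instead, Nrxn3 stood at 21.4 ± 2.996 in the deletion and 18.7 ± 1.76 CPM per kb in the wild-type group, above Nlgn3 at 16.8 ± 0.678 in the deletion and 14.4 ± 1.40 in the wild-type group. Nlgn1 then stood at 13.4 ± 1.40 in the deletion and 13.5 ± 1.07 CPM per kb in the wild-type group, within 1 SD of Nlgn3 in the wild-type group. Nrxn2 and Nlgn2 stayed the highest, at 88.9 ± 6.19 and 62.1 ± 6.36 CPM per kb in the deletion group.

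The comparison of the groups asked whether these genes differed in level without HAR.321. None of the 5 passed edgeR's quasi-likelihood test at a Benjamini-Hochberg adjusted p of 0.05 over the 15288 tested genes, where 9 genes (0.0589%) passed, 0 of them higher. Nlgn3 and Nrxn3 had unadjusted p-values under 0.05 and were higher in the deletion group (2 of 5 members, against 5.62% of all tested genes), and neither DESeq2, which called 2.38% of the genes it gave an adjusted p, nor limma-voom (0.0589%) called a member. No member had groups that did not overlap, against 1.22% of tested genes that were higher without overlap. In bulk tissue, fewer cells of a type and less RNA per cell cannot be told apart.

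**Figure D1:**
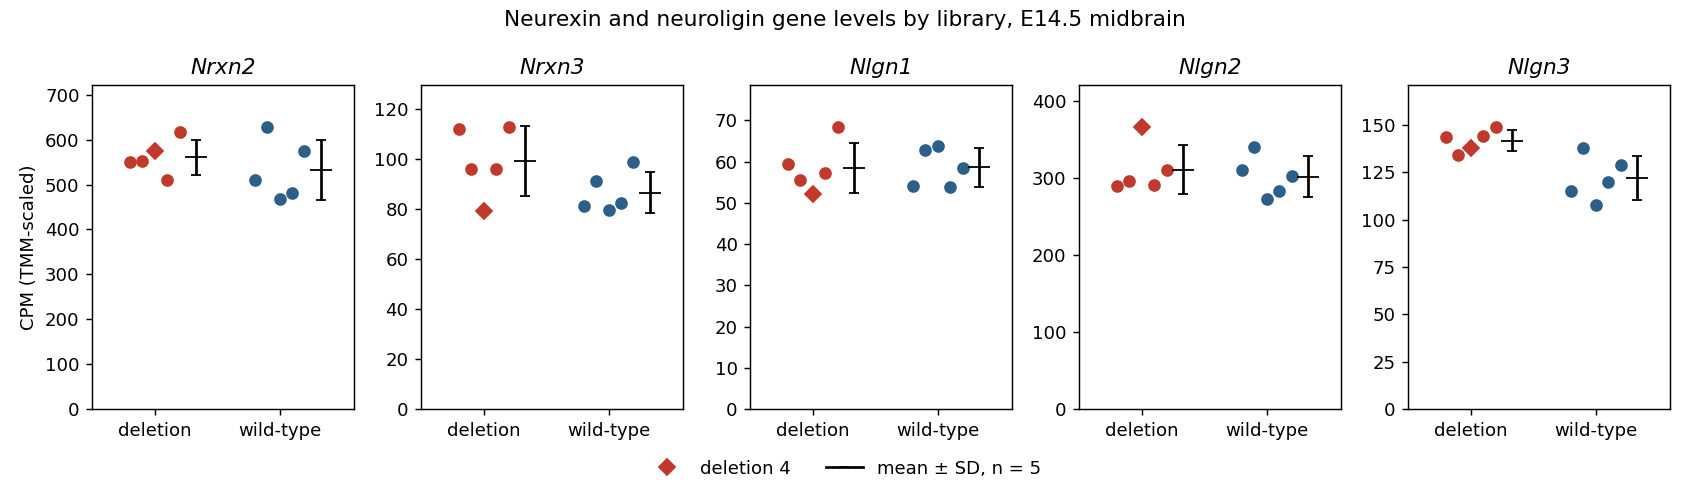
CPM of each member (vertical axis, from 0) in the 5 deletion and 5 wild-type libraries, 1 point a library, with the mean ± SD beside each group and deletion 4 as a diamond. The groups overlap for every member; Nlgn3 comes closest to separation, and deletion 4 lies at 366 CPM for Nlgn2.

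Nrxn2, the neurexin with the highest level, had 551, 553, 576, 510 and 617 CPM in deletion 2 to 6. In wild-type 1, 2, 4, 5 and 6 it had 510, 628, 468, 482 and 576 CPM. The highest library was wild-type 2, and no deletion library exceeded all wild-type ones. The means were 561 ± 39.1 CPM in the deletion and 532.5 ± 67.5 CPM in the wild-type group. The log2 fold change of 0.08 (95% interval -0.09 to 0.24, SE 0.08) had an edgeR adjusted p of 0.806. With the trends on length and GC content removed it was -0.003 (SE 0.05).

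Nrxn3, whose gene is the longest of the members, had 112, 95.8, 79.0, 95.8 and 113 CPM in deletion 2 to 6. In wild-type 1, 2, 4, 5 and 6 it had 81.1, 91.1, 79.5, 82.1 and 98.6 CPM. Deletion 2 and 6 lay above every wild-type library, while deletion 4 lay below every one. The means were 99.0 ± 13.9 CPM in the deletion and 86.5 ± 8.14 CPM in the wild-type group. The log2 fold change of 0.19 (95% interval 0.01 to 0.38, SE 0.09) had an unadjusted p of 0.0389 in edgeR and did not pass (adjusted p = 0.440).

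Its call depended on deletion 4. Without that library the log2 fold change of Nrxn3 was 0.27 (SE 0.07) and passed edgeR's test (adjusted p = 0.0457), in a fit that called 357 genes in all. With the trends on length and GC content removed it was 0.10 (SE 0.07, adjusted p = 0.678), and without deletion 4 in that fit 0.16 (SE 0.06, adjusted p = 0.269).

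Nlgn1, the neuroligin of excitatory synapses, had 59.4, 55.5, 52.1, 57.2 and 68.4 CPM in deletion 2 to 6. In wild-type 1, 2, 4, 5 and 6 it had 54.1, 62.9, 63.7, 53.9 and 58.5 CPM. Deletion 6 was the highest and deletion 4 the lowest library, so the deletion group spanned the wild-type one. The means were 58.5 ± 6.12 CPM in the deletion and 58.6 ± 4.67 CPM in the wild-type group, a log2 fold change of -0.002 (SE 0.08, edgeR adjusted p = 0.997). Its 95% interval ran from -0.17 to 0.16 on the log2 scale.

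Nlgn2, the neuroligin of inhibitory synapses, had 290, 297, 366, 291 and 310 CPM in deletion 2 to 6. In wild-type 1, 2, 4, 5 and 6 it had 311, 341, 272, 283 and 303 CPM. Deletion 4 was the highest of all libraries, and the other 4 deletion libraries lay within the wild-type range. The means were 311 ± 31.8 CPM in the deletion and 302 ± 26.6 CPM in the wild-type group. The log2 fold change was 0.04 (95% interval -0.11 to 0.20, SE 0.07, edgeR adjusted p = 0.900), and -0.02 without deletion 4 (SE 0.06).

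Nlgn3, the X-linked neuroligin, had 144, 134, 138, 144 and 149 CPM in deletion 2 to 6. In wild-type 1, 2, 4, 5 and 6 it had 115, 138, 108, 120 and 129 CPM. Each of the 5 deletion libraries exceeded the mean of the wild-type group, and 3 exceeded every wild-type library. The overlap came from wild-type 2. The means were 142 ± 5.74 CPM in the deletion and 122 ± 11.8 CPM in the wild-type group. The log2 fold change of 0.22 (95% interval 0.08 to 0.36, SE 0.07) had an unadjusted p of 0.00431 in edgeR, the 324th smallest of the tested genes, and did not pass (adjusted p = 0.203; 0.0786 in DESeq2). Leaving out each library gave 0.18 to 0.26, with adjusted p from 0.0586 to 0.479. With the trends on length and GC content removed it was 0.11 (SE 0.05, adjusted p = 0.438).

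**Figure D2:**
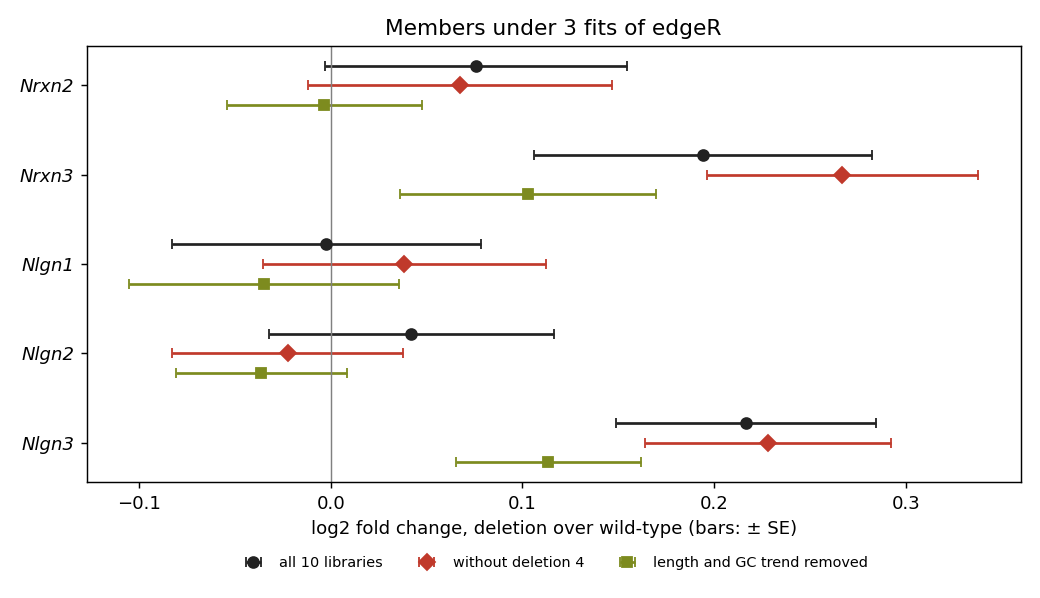
Log2 fold change of each member, deletion over wild-type (horizontal axis), with bars of ± SE, for all 10 libraries, without deletion 4, and with the trends on length and GC content removed. Nlgn3 and Nrxn3 lie at 0.22 and 0.19 with all libraries and at 0.11 and 0.10 with the trends removed, and the other 3 members lie between -0.04 and 0.08 in the 3 fits.

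Because Nlgn3 lies on the X chromosome, its level was also read by embryo sex. Xist, the RNA that coats the inactive X chromosome, was at 1706 and 2289 CPM in deletion 2 and 6 and at 1863, 2080 and 2030 CPM in wild-type 2, 5 and 6. In the other 5 libraries it was at 8.88 CPM or less, and there 4 Y-linked genes (Ddx3y, Eif2s3y, Kdm5d and Uty) summed to 197 to 270 CPM. Among the Xist-high libraries, Nlgn3 ran from 144 to 149 CPM in the 2 deletion and from 120 to 138 CPM in the 3 wild-type libraries, a difference in mean log2 CPM of 0.18. Among the Y-linked-high ones it ran from 134 to 144 CPM in the 3 deletion and from 108 to 115 CPM in the 2 wild-type libraries, a difference of 0.32. The groups thus did not overlap within either set of libraries, as was so with the same direction for 502 of the tested genes (3.28%). With the Y-linked level as a covariate, added after the values were seen, Nlgn3 had a log2 fold change of 0.24 (SE 0.06, edgeR adjusted p = 0.119), and Nrxn3 one of 0.23 (SE 0.07, adjusted p = 0.194).

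The spread within groups was smaller for some members once the trends were removed. The coefficient of variation of Nlgn2 was 10.2% in the deletion and 8.83% in the wild-type group, against 4.18% and 2.88% with the trends on length and GC content removed. That of Nrxn3 was 14.0% in the deletion and 9.41% in the wild-type group, against 10.6% and 7.43%. For Nlgn1 it hardly moved (10.5% and 7.96% in the deletion and the wild-type group, against 10.2% and 7.79%). After removal, Nlgn1 in deletion 4 stood at 67.9 CPM, the highest value of the gene, where it had been the lowest at 52.1 CPM.

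The balance within each family was compared by the ratio of counts inside a library, which library scaling does not touch. The log2 ratio of Nrxn3 over Nrxn2 was -2.51 ± 0.21 in the deletion and -2.62 ± 0.10 in the wild-type group, a difference of 0.11 (p = 0.317 in a two-sided exact permutation test, 0.635 when adjusted over the 2 ratios). The log2 ratio of Nlgn1 over Nlgn2 was -2.41 ± 0.24 in the deletion and -2.36 ± 0.16 in the wild-type group, a difference of -0.05 (p = 0.778 in the same exact permutation test, 0.778 when adjusted). The smallest p that 5 against 5 libraries allow is 0.00794. Deletion 4 had the lowest value of both ratios, at -2.87 and -2.81. Without it the Nrxn3 over Nrxn2 difference was 0.19 and its groups did not overlap. The exact permutation p was then 0.00794, the smallest that 4 against 5 give. With any other single library left out, the exact permutation p of that ratio was 0.317 to 0.595. The Nlgn1 over Nlgn2 difference was 0.05 without deletion 4. These ratios keep the trends on length and GC content, which differ between the genes compared. With the length trend alone removed, the differences were 0.09 and -0.09 (exact permutation p = 0.373 and 0.516). With both trends removed, Nrxn3 and Nrxn2 stood at 99.7 and 562.8 CPM in wild-type 6 and 93.0 and 553.9 CPM in deletion 3. From these values the Nrxn3 over Nrxn2 groups overlapped with deletion 4 left out. Deletion 4 then had 67.9 CPM for Nlgn1 and 320.7 CPM for Nlgn2, the highest ratio of any library. No test was run on ratios with both trends removed.

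**Figure D3:**
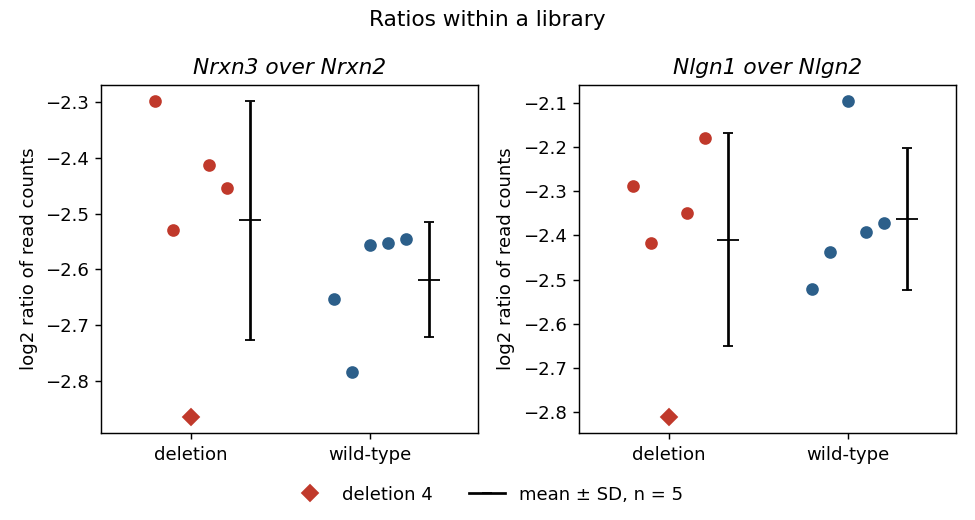
Log2 ratio of the counts of Nrxn3 over Nrxn2 and of Nlgn1 over Nlgn2 (vertical axes) in each library, with the mean ± SD of the 5 deletion and 5 wild-type libraries. Deletion 4, the diamond, is the lowest library in both panels, at -2.87 and -2.81.

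The binding partners of both families were counted from lists of 79 genes, of which 78 were tested. None passed edgeR's test (0.0589% of all tested genes did), and 10 had an unadjusted p under 0.05, all 10 higher in the deletion group (10 of 78, against 5.62% of all tested genes). Over the lists, 56 of 78 log2 fold changes were above 0, against 7538 of 15288 over all tested genes. The median was 0.06, against -0.002 over all tested genes. The median length of the longest transcript was 4592 bases in the lists and 3492 bases over all tested genes. With the trends on length and GC content removed the median was 0.02, against -0.0004 over all genes. DESeq2 called 3 of the 79 listed genes, Tenm2 and Dag1 among them, against 238 of 10020 (2.38%) over all genes it gave an adjusted p.

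**Figure D4:**
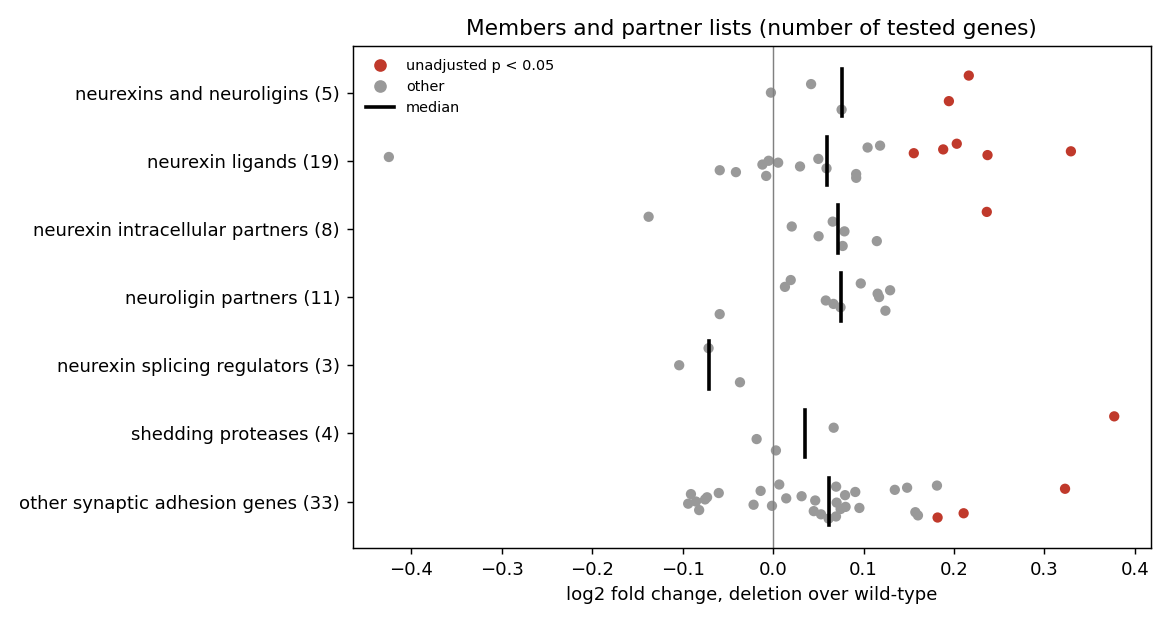
Log2 fold change, deletion over wild-type (horizontal axis), of each tested gene in the member and partner lists, with the list median as a bar and genes with an unadjusted p under 0.05 in red. All red points lie above 0, and the medians range from -0.07 for the splicing regulators to 0.08 for the members.

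Of the listed neurexin ligands, 13 of 19 tested genes were above 0, 5 had an unadjusted p under 0.05 and none passed. The median log2 fold change of this list was 0.06, and it was also 0.06 with the trends removed. Dag1, the dystroglycan gene, averaged 116 ± 7.43 CPM in the deletion and 98.8 ± 7.95 CPM in the wild-type group, a log2 fold change of 0.24 (SE 0.07, edgeR adjusted p = 0.160). Adgrl3, a latrophilin, averaged 147 ± 14.1 CPM in the deletion and 127.5 ± 7.62 CPM in the wild-type group, a log2 fold change of 0.20 (SE 0.07, edgeR adjusted p = 0.255). It passed without deletion 4 (0.25, SE 0.06, adjusted p = 0.0262), and with the trends removed it was 0.13 (SE 0.05, adjusted p = 0.368). With the trends removed Dag1 was 0.15 (SE 0.05, adjusted p = 0.290). No partner gene passed with the trends removed, with or without deletion 4. Clstn1, a calsyntenin and the ligand-list gene with the highest level per kb, stood at 101 CPM per kb in the deletion and 90.9 CPM per kb in the wild-type group (log2 fold change 0.16, SE 0.07). The cerebellin genes Cbln1, Cbln2 and Cbln4, whose secreted products link neurexins to glutamate receptors of the delta type, had log2 fold changes of -0.06, 0.06 and 0.03 (SE 0.14, 0.11 and 0.10). They and the LRRTM genes, with log2 fold changes from -0.04 for Lrrtm4 to 0.09 for Lrrtm1, are named after their values were seen. Nxph2, a neurexophilin, was the 1 listed gene too low to be tested.

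Inside the terminal, the neurexin tail binds the scaffold CASK, and the listed partners there were above 0 in 7 of 8 cases (median log2 fold change 0.07, 0.02 with the trends removed). Apba1, which encodes the adaptor Mint1, had a log2 fold change of 0.11 (SE 0.07). With the trends removed it was 0.01 (SE 0.06). Lin7c, a CASK partner with the highest level per kb on that list, stood at 93.3 CPM per kb in the deletion and 103 CPM per kb in the wild-type group (log2 fold change -0.14, SE 0.12). Neither passed.

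Of the scaffolds and regulators that bind neuroligins, 10 of 11 were above 0, with a median log2 fold change of 0.07 (0.007 with the trends removed), and 0 had an unadjusted p under 0.05. Gphn, the gephyrin scaffold of inhibitory synapses, showed a log2 fold change of 0.12 (SE 0.07). Lhfpl4, which joins Nlgn2 protein to GABA-A receptors, had the highest level per kb on the list, at 51.6 CPM per kb in the deletion and 51.1 CPM per kb in the wild-type group (log2 fold change 0.01, SE 0.06).

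The KH-domain splicing regulators that select neurexin splice forms were below 0 in 3 of 3 cases, and none had an unadjusted p under 0.05. The log2 fold change was -0.04 for Khdrbs1 (Sam68; SE 0.06), -0.10 for Khdrbs2 (SLM1; SE 0.10) and -0.07 for Khdrbs3 (SLM2; SE 0.07), which was at 0.005 with the trends removed. Of the proteases that shed or process neuroligins or neurexins, Adam10 and Adam17 had log2 fold changes of 0.003 and -0.02 (SE 0.06 and 0.09). Mmp9, a secreted metalloprotease, averaged 16.5 ± 0.899 CPM in the deletion and 12.7 ± 2.77 CPM in the wild-type group (log2 fold change 0.38, SE 0.13, edgeR adjusted p = 0.263).

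Adhesion genes that act at synapses beside the neurexins were above 0 in 23 of 33 cases (median log2 fold change 0.06, 0.02 with the trends removed), and 3 had an unadjusted p under 0.05. Tenm2, a teneurin that binds latrophilins, averaged 187.5 ± 10.7 CPM in the deletion and 150 ± 19.8 CPM in the wild-type group. Its log2 fold change was 0.32 (SE 0.08, edgeR adjusted p = 0.0874), and 0.20 with the trends removed (SE 0.05, adjusted p = 0.105). It passed in DESeq2 (0.32, adjusted p = 0.0119). The log2 fold change of Slitrk3, an adhesion protein of inhibitory synapses, was 0.21 (SE 0.08), and that of Cadm4, the gene of the list with the highest level per kb, was -0.09 (SE 0.07).

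Levels of other cell types were read beside these values. Neuron markers (10 genes) summed to 9374 to 10860 CPM in the deletion and 9954 to 10330 CPM in the wild-type libraries, with a median log2 fold change of 0.02 and 0 of 10 passing. Progenitor markers summed to 1163 to 1677 CPM in the deletion and 1225 to 1640 CPM in the wild-type libraries. Their median log2 fold change was -0.10, with 2 of 10 above 0 and 1 with an unadjusted p under 0.05. Endothelial markers summed to 136 to 159 CPM in the deletion and 130 to 163 CPM in the wild-type libraries, and microglial ones to 41.6 to 46.5 CPM in the deletion and 41.6 to 48.1 CPM in the wild-type libraries. Red blood cell markers summed to 2112 to 2845 CPM in the deletion and 1602 to 2428 CPM in the wild-type libraries (median log2 fold change 0.15, 5 of 5 tested above 0). No gene of these lists, or of the pericyte, meningeal and oligodendrocyte ones, passed. The ranges of the 2 groups overlapped in all of these lists, and the part of cell makeup in the member values was not tested.

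For each member, the genes whose log2 CPM moved most like it across the 10 libraries, with group means removed, were named from 11255 genes with a mean of at least 5 CPM. Nrxn2 was most like Cpne5, Trim32 and Ppfia3, which encodes a liprin of the presynaptic active zone (Pearson r = 0.95 each). Nrxn3 was most like Akap6, Adarb2 and Peg3 (r = 0.97, 0.96 and 0.95). Nlgn1 was most like Adgrb3, an adhesion receptor that binds the C1q-like ligands (r = 0.98), then Nr6a1 and Shroom2 (0.95 each). Nlgn2 was most like Tmem63b, Gmip and Ndufv3 (r = 0.99, 0.97 and 0.97). Nlgn3 was most like Sptan1, the brain spectrin gene, Pacsin1 and Larp1 (r = 0.98, 0.94 and 0.94). The 10 libraries share the trends on length and GC content, and these are the highest of many values, so no test is given. Among the members themselves, the deviations of Nrxn2 and Nlgn3 had the highest r, 0.80, while Nlgn2 stood at -0.28 with Nrxn3 and -0.20 with Nlgn1.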

How the data were processed

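The authors deposited 1 table of raw read counts by Entrez gene ID. The submitters' processing notes name HISAT2, featureCounts and mm39. Their versions, the annotation, strandedness and the treatment of multi-mapping reads: not given in the sources used here. So overlapping genes and near-identical copies may share counts. Symbols came from RefSeq (GRCm38.p6), found for 30648 of 30935 IDs, and the IDs with no symbol held 0.0116% of the counts. Transcript length and GC content (longest transcript, GENCODE M21) were found for 92.35% of tested genes. These builds differ from that of the counts, so coordinates are given for RefSeq promoters only.

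Counts were tested with edgeR 4.0.16 (R 4.3.3): filterByExpr, TMM, quasi-likelihood (robust) with no term but group, two-sided, Benjamini-Hochberg over 15288 genes, threshold 0.05. The standard error is the log2 fold change over the square root of F. DESeq2 1.42.0, limma-voom (limma 3.58.1), other scalings and filters, a replicate block, a Y-linked covariate, each library left out and each library's spline trend (4 degrees of freedom, genes above a mean log2 CPM of 3) on length, with or without GC content, were alternatives. The fit and the trend step were tested on simulated counts. There the fit called 31.3% of 1.25-fold, 82.1% of 1.5-fold and 98.5% of 2-fold changes in genes of at least 5 CPM. Of its calls, 7.24% were false. The counts behind these shares held no trend on length or GC content, so the shares may differ in the real libraries. No same-group libraries were duplicates (lowest chi-square per degree of freedom 5.81). Libraries were treated as independent. The p-values measure the spread between 5 libraries a group, and whether libraries share a litter is not given.

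Named genes were all members, the 2 smallest p-values and the highest level per kb of each partner list, all genes of lists with 4 or fewer members, and the 3 genes most like each member; others are marked. Some genes that this rule names are not reported here. The members and lists were chosen with earlier results of these data known.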

Additional observations from a re-analysis of the deposited data

Results flagged for a closer look

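1 of 14 group values was far from the rest of its group. Nlgn2 in deletion 4 stood at 366 CPM, above the other 4 deletion libraries at 290 to 310 CPM, and its gap to the nearest library was 0.742 of the group's range. Chance marks about 1 in 20 groups in this way. Deletion 4 is also the library whose levels rose most with GC content (0.25 log2 CPM for each 10 percentage points), and the longest Nlgn2 transcript has 60.7% GC. With the trends on length and GC content removed, Nlgn2 in deletion 4 stood at 320.7 CPM. The other deletion libraries then stood at 288.6 to 306.8 CPM and the wild-type ones at 297.9 to 320.8 CPM. The cause of the high value was not tested.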

How the results depend on the processing

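No member passed edgeR's test in any alternative with all libraries, and 1 (Nrxn3) passed without deletion 4. Over all results and alternatives, 157 values kept their direction and side of the threshold, or stayed within 1.5 times the count, 22 counts moved further, 13 values changed sign and 2 passed the threshold only under the alternative. The count of genes that passed, 9 with all libraries, was 15 with upper-quartile factors, 69 with no filter, 238 in DESeq2, 0 with the length trend removed, 18 with the length and GC trends removed and 71 in that fit without deletion 4. It ran from 0 to 357 when each library was left out: 357 without deletion 4, 88 without wild-type 2, 3 without deletion 3 or 6, 1 without wild-type 4, and 0 without any of the other 5. Partner genes passed in 1 case with no filter (Tenm2), 3 in DESeq2, and 0 to 2 with a library left out (Tenm2 and Adgrl3 without deletion 4, Tenm2 without wild-type 2).

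Values near 0 changed sign. Nrxn2 was -0.00339 with the length and GC trends removed. Nlgn2 was -0.00453 with the length trend removed, -0.0362 with both removed, -0.0592 with both removed and deletion 4 left out, and -0.0226 to 0.0828 with a library left out. Nlgn1 was 0.00967 with the Y-linked covariate, -0.0642 to 0.0383 with a library left out and -0.0971 with both trends removed and deletion 4 left out. The ratio difference of Nlgn1 over Nlgn2 ran from -0.103 to 0.0549 and that of Nrxn3 over Nrxn2 from 0.0529 to 0.194. Nrxn3 ran from 0.14 to 0.27, Nrxn2 from 0.03 to 0.14 and Nlgn3 from 0.18 to 0.26. The cause of these shifts was not tested.

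The deviations of libraries with the same number correlated at -0.13 to 0.12 over 4 pairs, which shows no sign of pairing. Whether the numbers mark litters or batches cannot be told from so few pairs. With the replicate block 0 genes passed (924 had an unadjusted p under 0.05; DESeq2 and limma-voom without the block called 238 and 9), and Nlgn3 had a log2 fold change of 0.22 (adjusted p = 0.731). None of the deletion libraries 2, 4, 5 and 6 correlated best with the wild-type library of its own number. The SEs of the members were 0.07 to 0.09, and Nlgn3, at a log2 fold change of 0.22, did not pass, so log2 differences of that size may go uncalled with 5 libraries a group.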
